A study of Mus musculus with 12 samples.

Results

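The genes with which the gut wall takes up dietary fat and sterols, rebuilds triglyceride and packs it into lipoproteins were followed by RNA sequencing of the terminal ileum of mice that lack lymphocytes of different kinds. They are 34 genes listed by symbol, and all 34 had reads among the 23284 genes of the deposited count table. By role, 8 are listed for fatty acid uptake, binding and activation, among them the colipase gene Clps. Of the others, 3 re-synthesise triglyceride, 12 make up or control lipoproteins, 6 move or esterify sterols, and 5 belong to lipid droplets and lipolysis. The study compared 12 mice in 4 groups of 3, with 1 library per mouse. In Rag1-/- mice the recombinase that assembles antigen receptor genes is missing, so that T and B cells do not mature, and how these mice were housed is not given. In Tcra-/- mice the alpha chain of the T cell receptor is missing, and with it alpha beta T cells. They were either co-housed, which means 4 to 8 weeks in a cage with as many age-matched male wild type mice, or separately housed. Wild type mice were C57BL/6. All groups came from Taconic and lived under specific pathogen free conditions, and their ages, the number of cages and whether the sequenced wild type mice had been cage mates are not given. Cage mates are not independent samples of a housing condition, so the tests of housing measure the spread between mice. Both knockouts are germline strains, so their loss is not limited to the gut.

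Absorptive cells of the small intestine take up fatty acids and monoglyceride, bind them to cytosolic carriers, activate them with coenzyme A and join them again into triglyceride in the endoplasmic reticulum. There the triglyceride is loaded onto apolipoprotein B-48, a short form that arises by editing of the Apob transcript, and the particle leaves as a chylomicron by way of the lymph. Most of this work is done in the proximal gut, while the terminal ileum is best known for taking up bile acids and vitamin B12. Several of the genes are textbook targets of the nuclear receptors PPARA and HNF4A, which bind direct repeats of a hexamer in promoters and enhancers.

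Promoter sequence, taken as 250 bases before and 50 after the start of a gene, was found in RefSeq (build GRCm38.p6) for 27 of the 34 genes. It is shown for 4 genes whose transcripts changed and whose promoter holds a near match to the direct repeat that PPARA and HNF4A recognise, AGGTCANAGGTCA on either strand with at most 2 mismatches, and for Fabp2. Creb3l3, which has such a match too and fell in both tested comparisons, is not shown. Cd36, Fabp1 and Plin2 were lower in both tested comparisons and Apoc2 was higher in Rag1-/- mice. Capitals mark the match. The windows are chr5:17835847-17836146 on the minus strand for Cd36, chr6:71199629-71199928 on the plus strand for Fabp1, chr4:86670010-86670309 on the minus strand for Plin2 and chr7:19677892-19678191 on the minus strand for Apoc2.
Cd36: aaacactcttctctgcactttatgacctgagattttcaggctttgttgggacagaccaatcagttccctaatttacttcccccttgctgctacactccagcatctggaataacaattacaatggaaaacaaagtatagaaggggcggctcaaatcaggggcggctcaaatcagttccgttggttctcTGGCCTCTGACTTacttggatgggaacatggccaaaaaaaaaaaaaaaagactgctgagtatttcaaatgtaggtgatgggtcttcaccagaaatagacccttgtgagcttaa
Fabp1: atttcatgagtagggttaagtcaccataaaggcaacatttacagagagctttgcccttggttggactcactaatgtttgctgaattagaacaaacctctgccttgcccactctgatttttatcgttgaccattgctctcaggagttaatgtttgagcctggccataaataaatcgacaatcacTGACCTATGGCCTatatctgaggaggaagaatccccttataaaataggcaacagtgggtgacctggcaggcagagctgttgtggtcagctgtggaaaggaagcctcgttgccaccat
Plin2: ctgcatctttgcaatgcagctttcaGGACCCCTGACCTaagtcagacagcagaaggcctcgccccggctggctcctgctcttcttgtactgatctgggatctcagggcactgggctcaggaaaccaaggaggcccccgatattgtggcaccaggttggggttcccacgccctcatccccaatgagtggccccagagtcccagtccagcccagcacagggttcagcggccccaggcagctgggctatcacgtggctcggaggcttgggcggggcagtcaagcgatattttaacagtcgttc
Apoc2: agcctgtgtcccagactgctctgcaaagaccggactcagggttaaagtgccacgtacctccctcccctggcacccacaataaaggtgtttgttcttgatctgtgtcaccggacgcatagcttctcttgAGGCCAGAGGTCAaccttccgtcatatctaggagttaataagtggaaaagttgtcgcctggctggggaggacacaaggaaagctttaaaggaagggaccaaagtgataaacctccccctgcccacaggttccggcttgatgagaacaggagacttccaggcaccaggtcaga

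The match begins 63 bases before the start in Cd36, 67 in Fabp1, 225 in Plin2 and 122 in Apoc2. It has 1 mismatch in Fabp1 and Apoc2 and 2 in Cd36 and Plin2. In Creb3l3 a match with 2 mismatches begins 209 bases before the start, and its other RefSeq promoter holds none. With Creb3l3, 5 of the 27 genes (18.5%) had such a match in a promoter, against 1190 of all 27025 RefSeq genes (4.40%). A few genes have more than 1 promoter in RefSeq, and of all 32851 promoters of this length 3.86% held the match. The near match stands before genes that were lower and before 1 that was higher. A second motif, CAAAGTCCA with at most 1 mismatch on either strand, is bound by HNF4 factors and was found in 4 of the 27 genes (14.8%), against 9.64% of all genes and 8.47% of all such promoters. Those 4 were Apoa4, Apobec1, Fabp2 and Plin3, and none of them held a match to the direct repeat. The Fabp2 window, chr3:122894822-122895121 on the plus strand, has the match in capitals with 1 mismatch and belongs to the gene with the highest level of all 34.
Fabp2: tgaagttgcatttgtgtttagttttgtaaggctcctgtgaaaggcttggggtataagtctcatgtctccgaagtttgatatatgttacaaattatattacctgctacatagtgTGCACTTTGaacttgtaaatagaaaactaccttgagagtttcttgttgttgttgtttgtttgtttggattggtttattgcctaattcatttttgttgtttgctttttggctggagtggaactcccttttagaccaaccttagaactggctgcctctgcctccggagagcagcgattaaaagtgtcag
These are matches of letters in a chosen set of genes. They were not tested as binding sites, and no factor binding was measured.

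The libraries held between 37061276 and 50581616 counts, and levels are given as CPM, a gene's counts relative to its library's total scaled with TMM factors, or, between genes, as RPKM, which is CPM per kilobase of exon. A filter on low counts kept 15866 genes and 32 of the 34. Apoa5, an activator of lipoprotein lipase made mostly by liver, had 41 reads in all libraries, with 0 in Rag1-/- mice, 6 in co-housed and 21 in separately housed Tcra-/- mice and 14 in wild type mice. Apom, the carrier of sphingosine 1-phosphate on high density lipoprotein, had 57 reads, with 20, 17, 6 and 14 in the same order of groups. Neither was tested. Rag1 itself had 1.81 ± 0.166 CPM (SD, n = 3) in Rag1-/- mice and no read in the other 9 mice, and since the deleted part of the gene is not given, its reads do not check the label. Transcripts of B cells followed the label of the Rag1-/- mice. The summed level over 5 marker genes was 2.37 to 3.38 CPM in Rag1-/- mice and 131 to 157 in wild type mice. It was 89.0 to 129 CPM in co-housed and 37.5 to 69.7 in separately housed Tcra-/- mice. All 5 were also called lower in separately housed than in wild type mice, which the Tcra-/- label does not state.

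In every group the carrier Fabp2 and the apolipoprotein Apoa1 had the highest levels per length. Fabp2, the intestinal fatty acid binding protein, averaged 4093 RPKM in Rag1-/- mice, 4249.6 in co-housed Tcra-/- mice, 12376 in separately housed Tcra-/- mice and 8077 in wild type mice. Apoa1, the main protein of high density lipoprotein, averaged 4052, 3365, 8044 and 6121 RPKM in the same order. The ranges of both genes over 3 mice overlapped in Rag1-/-, co-housed and wild type mice and did not in separately housed mice. Apob and Apoa4 came next in each group, between 365 and 1049.6 RPKM. The lowest of the tested genes was Scarb1, a receptor for high density lipoprotein, at 0.782, 0.840, 0.740 and 0.897 RPKM. Fabp1, the liver type carrier that marks the proximal gut, ranked 23 and 24 of 34 in Rag1-/- and co-housed mice, 12 in separately housed and 16 in wild type mice. The plot of levels per kilobase shows that group means lie farthest apart, as a ratio, in Fabp1, Apoc3, Cd36 and Slc27a2 and closest in Mttp, Sar1b, Plin3 and Scarb1.

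**Figure D1:**
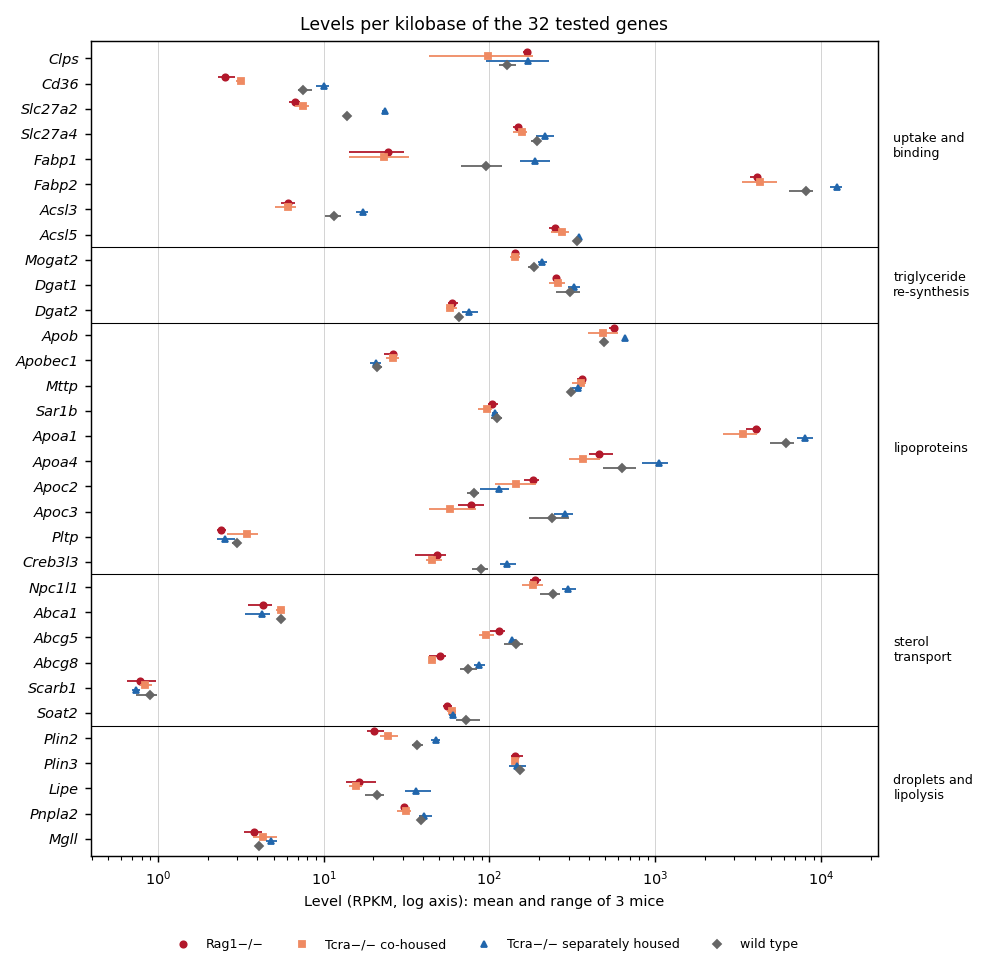
Mean level of the 32 tested genes in RPKM (log axis) in each group, with the range of 3 mice as a line, by role of the gene. Fabp2 and Apoa1 lie farthest right and Scarb1 farthest left in all groups.

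Taken over all 34 genes, the share of counts was 1.90 to 2.09% in the Rag1-/- group, 1.72 to 2.22% in the co-housed Tcra-/- group, 3.47 to 3.87% in separately housed Tcra-/- mice and 2.51 to 2.96% in wild type mice. The highest shares were thus those of separately housed Tcra-/- mice, above every wild type mouse, and the shares of Rag1-/- and co-housed mice overlapped with each other and with no other group. Apob, Fabp2 and Apoa1 had the most counts in every group. Of the 32 tested genes, 22 had their highest mean in separately housed mice, and in 14 all 3 of these mice lay above the other 9. In 14 genes all 6 Rag1-/- and co-housed mice lay below all 6 separately housed and wild type mice. The shares of all genes with these orders are not given here, so these counts describe the 32 genes alone. In an RNA extract of whole tissue, fewer cells of a type and less RNA per cell cannot be told apart.

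The study set Rag1-/- against wild type mice to ask what the absence of T and B cells does to the ileum, in relation to lipid metabolism and the microbiota. A gene is called changed here at a Benjamini-Hochberg adjusted p under 0.01 over all 15866 genes in edgeR's quasi-likelihood test. Changes are log2 fold changes with the SE of the fit, in Rag1-/- mice against wild type mice and in co-housed against separately housed mice unless another group is named, and single mice go by their labels (RAG1x, TCRaCox, TCRaSepx or WTB6x and a number). Of the 32 genes tested, 14 fell and 1 rose, where 20.9% of all genes were called, 11.5% lower and 9.42% higher. The median log2 fold change was −0.37, against −0.02 over all genes. In 22 genes the 3 Rag1-/- mice did not overlap with the 3 wild type mice, 17 of them lower. How many of all 15866 genes did so is not given here, so the count is not set against a background. Scaling by library size alone moved the median of all genes to −0.19 and the calls among all genes to 713 higher and 3218 lower, against 1494 and 1820, so directions are relative to the scaling. Under it 20 of the 32 genes fell and 1 rose.

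The same genes were tested between co-housed and separately housed Tcra-/- mice, which the study compared for the effect of housing with wild type mice. Here 20 of 32 fell and 1 rose, where 38.8% of all genes were called, 17.7% lower and 21.1% higher. The median log2 fold change was −0.49, against −0.01 over all genes. In 23 genes the 3 co-housed mice did not overlap with the 3 separately housed mice, 21 of them lower. The share of all genes without overlap is not given for this comparison either. With library size alone the median of all genes was −0.12 and the calls among all genes were 2480 higher and 3695 lower, against 3347 and 2809, and 22 of the 32 genes fell. Both comparisons share no library, though they were taken from 1 fit with a shared estimate of the spread. Of the 32 genes 13 fell in both, and the share of all genes that did so is not given here. In the plot of fold changes the points farthest from 0 on either side are those of Fabp1 and Apoc3.

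**Figure D2:**
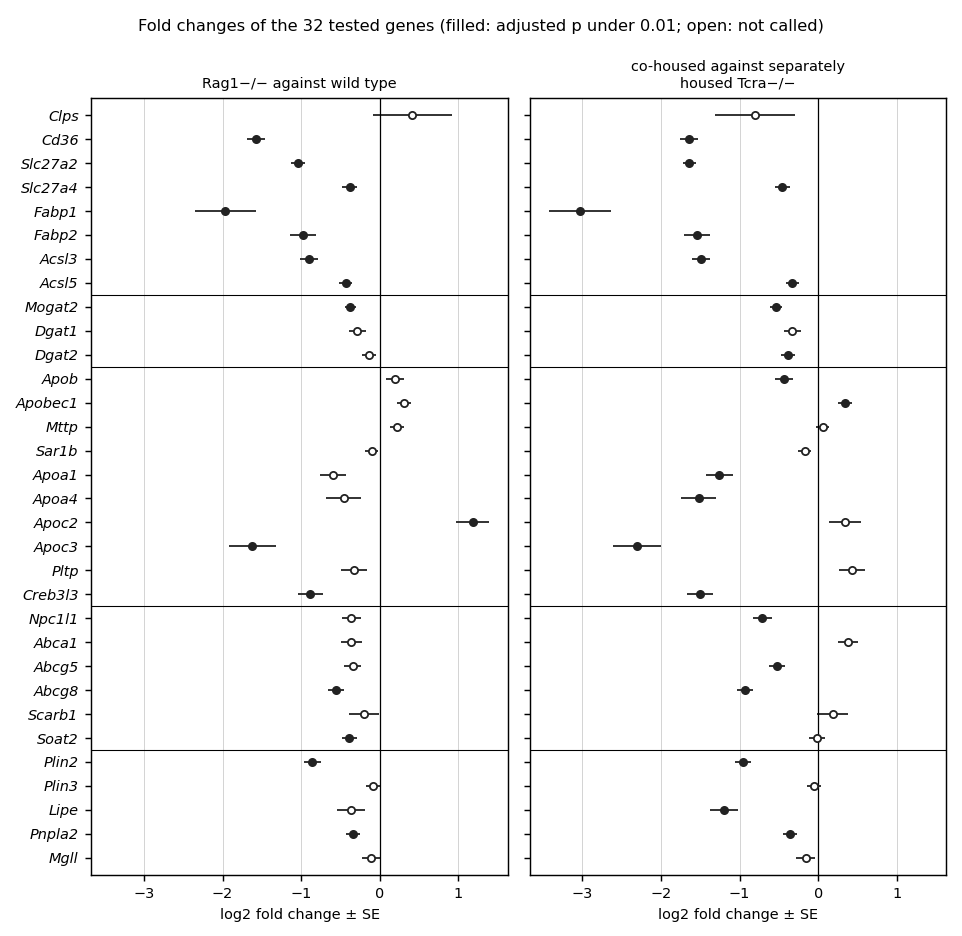
Log2 fold change ± SE of the 32 tested genes in Rag1-/- against wild type mice (left) and in co-housed against separately housed Tcra-/- mice (right), with 3 mice per group. Filled points passed an adjusted p of 0.01; 14 filled points lie below 0 on the left and 20 on the right.

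Of the 8 genes listed for fatty acid uptake, binding and activation, all but the colipase gene Clps fell. These 7 fell in Rag1-/- mice and in co-housed Tcra-/- mice, and the median log2 fold changes of the 8 were −0.94 and −1.52. Cd36, the fatty acid translocase (mm9 chr5:17287508-17394777), had 9.26, 9.10 and 11.5 CPM in Rag1-/- mice, 13.1, 13.1 and 11.6 in co-housed Tcra-/- mice, 35.4, 40.5 and 42.2 in separately housed Tcra-/- mice and 27.9, 33.5 and 27.7 in wild type mice. All 6 Rag1-/- and co-housed mice lay below all others, with no overlap between either pair of groups compared. It fell 2.98-fold in Rag1-/- mice (log2 fold change −1.57, SE 0.11, adjusted p = 4.46e-08) and 3.13-fold in co-housed mice (log2 fold change −1.65, SE 0.11, adjusted p = 1.2e-08).

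Slc27a2, which encodes the fatty acid transport protein and very long chain ligase FATP2 (mm9 chr2:126378760-126413979), had 14.2, 15.6 and 16.5 CPM in Rag1-/- mice, 18.9, 17.4 and 15.5 in co-housed Tcra-/- mice, 55.5, 54.0 and 51.8 in separately housed Tcra-/- mice and 30.7, 31.7 and 33.1 in wild type mice. The separately housed mice stood apart above all others, and the Rag1-/- and co-housed mice overlapped with each other only. Its fall was 2.06-fold in Rag1-/- mice (log2 fold change −1.04, SE 0.09, adjusted p = 1.83e-07) and 3.12-fold in co-housed mice (log2 fold change −1.64, SE 0.09, adjusted p = 9.39e-10). The first change minus the second was 0.60 (SE 0.12, adjusted p = 0.00191), so its fall was smaller in the Rag1-/- comparison.

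Fabp1, the liver type carrier (mm9 chr6:71149882-71155017), had 6.98, 15.1 and 13.8 CPM in Rag1-/- mice, 16.1, 7.02 and 11.04 in co-housed Tcra-/- mice, 115, 75.2 and 87.2 in separately housed Tcra-/- mice and 49.3, 58.3 and 33.0 in wild type mice. Values spread widely within the Rag1-/- and co-housed groups, and yet all 6 lay below every separately housed and wild type mouse. It had the largest fall of the 32 genes in both comparisons, 3.91-fold in Rag1-/- mice (log2 fold change −1.97, SE 0.39, adjusted p = 0.00452) and 8.17-fold in co-housed mice (log2 fold change −3.03, SE 0.40, adjusted p = 0.000225). The Rag1-/- call ended without RAG1x3163, RAG1x3164, RAG1x3168, WTB6x3159 or WTB6x3160 (adjusted p = 0.0111 to 0.0179, log2 fold change −2.16 to −1.70).

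Fabp2, the intestinal type carrier (mm9 chr3:122598310-122602424), had 2392, 2763 and 2765 CPM in Rag1-/- mice, 3516, 2144 and 2564 in co-housed Tcra-/- mice, 8079, 7269 and 8599.5 in separately housed Tcra-/- mice and 5727, 5758 and 4145 in wild type mice. The 6 Rag1-/- and co-housed mice lay below the other 6, and separately housed mice above wild type mice. It fell 1.97-fold in Rag1-/- mice (log2 fold change −0.98, SE 0.17, adjusted p = 0.000608) and 2.91-fold in co-housed mice (log2 fold change −1.54, SE 0.17, adjusted p = 7.41e-06).

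Acsl3, an acyl-CoA ligase of the endoplasmic reticulum and droplet surface (mm9 chr1:78654400-78704318), had 22.0, 24.2 and 26.6 CPM in Rag1-/- mice, 26.8, 26.0 and 20.1 in co-housed Tcra-/- mice, 70.0, 61.9 and 73.6 in separately housed Tcra-/- mice and 50.2, 40.1 and 46.0 in wild type mice. As for Slc27a2, separately housed mice were highest and wild type mice next, without overlap in either comparison. Its fold changes were −0.91 (SE 0.12, adjusted p = 2.04e-05) in Rag1-/- mice and −1.50 (SE 0.12, adjusted p = 6.28e-08) in co-housed mice on the log2 scale. Of its exonic bases 419 lie in Utp14b on the same strand, so some of its reads may be counted for either gene.

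Smaller falls were measured for Acsl5 and Slc27a4, whose products also activate or take up long chain fatty acids and whose levels were far above those of Cd36. Acsl5 had 722, 808 and 827 CPM in Rag1-/- mice and 1036, 1096 and 1053 in wild type mice, and 946, 907 and 745 CPM in co-housed Tcra-/- mice and 1070.3, 1086 and 1107 in separately housed Tcra-/- mice. Its log2 fold changes were −0.43 (SE 0.09, adjusted p = 0.00109) and −0.33 (SE 0.09, adjusted p = 0.00469), and the call between co-housed and separately housed mice ended without TCRaCox3157, TCRaSepxT2, TCRaSepxT3 or TCRaSepxT4 (adjusted p = 0.0115 to 0.0212, log2 fold change −0.34 to −0.23). Slc27a4 had 622, 559 and 604 CPM in Rag1-/- mice and 782, 823 and 717 in wild type mice, and 652, 560.0 and 671 CPM in co-housed Tcra-/- mice and 844, 768 and 981 in separately housed Tcra-/- mice. Neither pair of groups overlapped. Its changes were −0.38 (SE 0.10, adjusted p = 0.0061) in Rag1-/- mice and −0.46 (SE 0.10, adjusted p = 0.000755) in co-housed mice, of which the Rag1-/- one was not called without RAG1x3163, RAG1x3164, RAG1x3168, WTB6x3159 or WTB6x3160 (adjusted p = 0.0126 to 0.0359, log2 fold change −0.41 to −0.33).

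Clps, the colipase that a pancreas secretes to anchor lipase on fat, was the exception among these 8. It had 84.2, 87.9 and 78.8 CPM in Rag1-/- mice, 33.7, 21.3 and 90.8 in co-housed Tcra-/- mice, 94.7, 112 and 47.4 in separately housed Tcra-/- mice and 71.1, 60.9 and 56.3 in wild type mice. TCRaCox3157 lay near the Rag1-/- mice and the other 2 co-housed mice far below, so the groups of the housing comparison overlapped, while Rag1-/- mice lay above wild type mice. The change was 0.41 (SE 0.51, adjusted p = 0.594) in Rag1-/- mice and −0.80 (SE 0.51, adjusted p = 0.224) in co-housed mice, and neither was called. Without TCRaCox3157 (adjusted p = 0.00744, log2 fold change −1.63) the co-housed change passed, and in a fit of the 6 libraries compared the Rag1-/- change did (0.43, adjusted p = 0.00284). Of 8 pancreas acinar markers none passed the filter, Pnlip and Amy2a5 had no read, and their summed level was at most 0.628 CPM in any library.

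**Figure D3:**
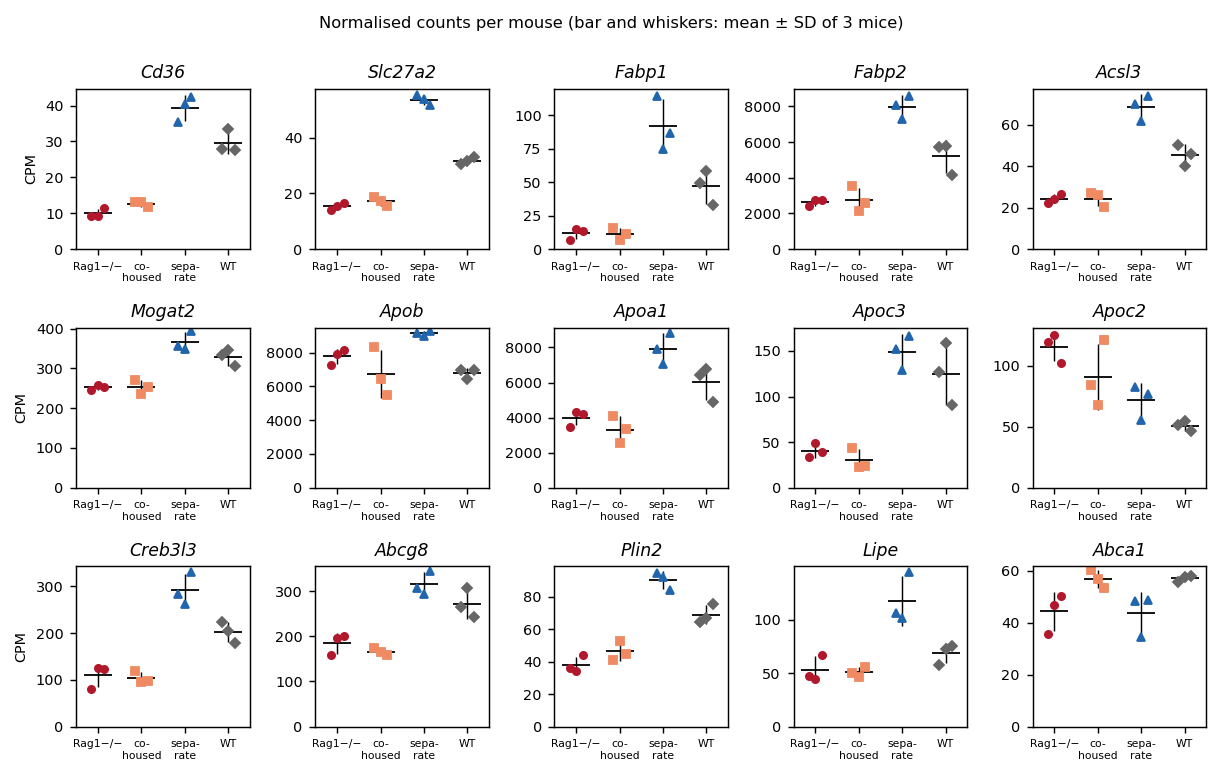
CPM of 15 genes in each mouse (points), with the mean and SD of 3 mice, in Rag1-/-, co-housed Tcra-/-, separately housed Tcra-/- and wild type (WT) mice. In Cd36, Slc27a2, Fabp1, Fabp2, Acsl3 and Plin2 the 6 Rag1-/- and co-housed mice lie below the other 6; Apoc2 is highest in Rag1-/- mice.

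Of the 3 enzymes that rebuild triglyceride, Mogat2, the monoacylglycerol acyltransferase of the gut, fell in both comparisons. The gene (mm9 chr7:106367594-106387121) had 246, 258 and 254 CPM in Rag1-/- mice, 272, 235 and 252 in co-housed Tcra-/- mice, 357, 349 and 395 in separately housed Tcra-/- mice and 333, 345 and 305 in wild type mice. The Rag1-/- and co-housed mice overlapped with each other and lay below all other mice. Its changes were −0.37 (SE 0.07, adjusted p = 0.00113) in Rag1-/- mice and −0.54 (SE 0.07, adjusted p = 2.09e-05) in co-housed mice. Dgat2, 1 of a pair of enzymes that add the last acyl chain, changed by −0.14 (SE 0.09, adjusted p = 0.25) in Rag1-/- mice, which was not called, and had a change of −0.38 (SE 0.09, adjusted p = 0.00173) in co-housed mice. Its co-housed call ended without TCRaCox3156 or TCRaSepxT4 (adjusted p = 0.0122 to 0.0132, log2 fold change −0.34 to −0.28). Dgat1, the other, ranged from 426 to 449 CPM in Rag1-/- mice, 399 to 499 in co-housed mice, 522 to 616 in separately housed mice and 439 to 618 in wild type mice. It was called in neither comparison (log2 fold change −0.28, SE 0.11, adjusted p = 0.0635, and −0.33, SE 0.11, adjusted p = 0.0207), but passed in both without WTB6x3167 (adjusted p = 0.00606 in Rag1-/- and 0.00636 in co-housed mice). Dgat2 and Mogat2 lie 36370 bases apart on chromosome 7 (mm9), both on the minus strand.

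Of the 12 lipoprotein genes 10 were tested, of which 2 fell and 1 rose in Rag1-/- mice, and 5 fell and 1 rose in co-housed mice. Apob, the core protein of the chylomicron (mm9 chr12:7984483-8023645), had 7290.2, 7946 and 8139 CPM in Rag1-/- mice, 8317, 6415 and 5505 in co-housed Tcra-/- mice, 9175, 8998 and 9269 in separately housed Tcra-/- mice and 6991, 6425 and 6964 in wild type mice. Rag1-/- mice lay above wild type mice and co-housed mice below separately housed mice, each without overlap. The change was 0.20 (SE 0.11, adjusted p = 0.211) in Rag1-/- mice, not called, and −0.44 (SE 0.11, adjusted p = 0.00439) in co-housed mice, with a difference between them of 0.64 (SE 0.16, adjusted p = 0.00989). The co-housed call ended without TCRaCox3156, TCRaCox3157, TCRaSepxT2, TCRaSepxT3 or TCRaSepxT4 (adjusted p = 0.0114 to 0.0267, log2 fold change −0.45 to −0.31). The difference held when TCRaCox3155 was left out and ended without any other 1 mouse (adjusted p = 0.0118 to 0.0303, difference 0.51 to 0.68).

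Apobec1, the cytidine deaminase that edits the Apob transcript, was the 1 gene that rose in co-housed mice, with 65.0, 58.8 and 54.0 CPM against 50.4, 46.5 and 43.2 CPM in separately housed mice (log2 fold change 0.34, SE 0.09, adjusted p = 0.00521). It had 52.8, 63.2 and 62.0 CPM in Rag1-/- mice and 50.99, 47.8 and 44.8 CPM in wild type mice (log2 fold change 0.31, SE 0.09, adjusted p = 0.0155), which missed the threshold. The groups did not overlap in either comparison. The rise in co-housed mice did not hold under scaling by library size alone (adjusted p = 0.0451), nor without TCRaCox3155, TCRaCox3156, TCRaSepxT3 or TCRaSepxT4 (adjusted p = 0.0107 to 0.0328, log2 fold change 0.27 to 0.36), and the Rag1-/- change passed without RAG1x3163 (adjusted p = 0.00674, log2 fold change 0.39).

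Mttp, which lipidates apolipoprotein B, had 1601 ± 103 CPM in Rag1-/- mice, 1569 ± 159.6 in co-housed mice, 1510.3 ± 103 in separately housed mice and 1374 ± 46.2 in wild type mice (SD, n = 3). Sar1b, a small GTPase needed for chylomicron export, had 130.3 ± 10.4, 121 ± 12.1, 136 ± 5.19 and 139.9 ± 10.8 CPM in the same order. Neither was called. Changes were 0.22 (SE 0.09, adjusted p = 0.0624) and 0.05 (SE 0.09, adjusted p = 0.621) for Mttp, and −0.10 (SE 0.08, adjusted p = 0.396) and −0.17 (SE 0.08, adjusted p = 0.102) for Sar1b, for Rag1-/- and co-housed mice in that order. Pltp, which transfers phospholipid between lipoproteins, had 4.10 to 4.68 CPM in Rag1-/- mice, 4.71 to 7.23 in co-housed mice, 4.10 to 5.29 in separately housed mice and 5.06 to 5.71 in wild type mice. It was called in neither comparison (log2 fold change −0.33, SE 0.17, adjusted p = 0.151, and 0.43, SE 0.16, adjusted p = 0.04), and the co-housed change passed without TCRaCox3155 (adjusted p = 0.00584, log2 fold change 0.59). It shares 495 exonic bases on the opposite strand with Ctsa, which has 71006 reads against 2658.

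Apoa1, Apoc3, Apoa4 and Apoa5 lie side by side within 43290 bases of chromosome 9 (mm9 46036713 to 46080002), where Apoc3 alone is on the minus strand. The 3 with enough reads fell in co-housed mice, and of them Apoc3 alone passed in Rag1-/- mice. Apoc3, a brake on the clearance of triglyceride-rich particles, had 33.8, 48.9 and 39.5 CPM in Rag1-/- mice, 43.7, 22.7 and 24.3 in co-housed Tcra-/- mice, 152, 129 and 167 in separately housed Tcra-/- mice and 127, 158 and 90.4 in wild type mice. The 6 Rag1-/- and co-housed mice lay below the others, and separately housed and wild type mice overlapped. It fell 3.07-fold in Rag1-/- mice (log2 fold change −1.62, SE 0.29, adjusted p = 0.00264) and 4.94-fold in co-housed mice (log2 fold change −2.31, SE 0.30, adjusted p = 0.000181). The Rag1-/- call ended without RAG1x3163, RAG1x3168 or WTB6x3160 (adjusted p = 0.01 to 0.0138, log2 fold change −1.60 to −1.41).

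Apoa1 had 3488, 4296 and 4190.0 CPM in Rag1-/- mice, 4067, 2535 and 3342 in co-housed Tcra-/- mice, 7892, 7058 and 8820.5 in separately housed Tcra-/- mice and 6417, 6799.5 and 4872 in wild type mice. The Rag1-/- mice were all below the wild type mice, but the change missed the threshold (log2 fold change −0.60, SE 0.17, adjusted p = 0.0148) and passed without TCRaCox3155, TCRaCox3156 or WTB6x3167 (adjusted p = 0.00329 to 0.00597, log2 fold change −0.73 to −0.58). In co-housed mice it fell 2.39-fold (log2 fold change −1.26, SE 0.17, adjusted p = 3.81e-05). Apoa4, which is secreted on chylomicrons during fat absorption, had 661, 699.7 and 929.5 CPM in Rag1-/- mice, 774, 503 and 549 in co-housed Tcra-/- mice, 1871, 1384 and 1991 in separately housed Tcra-/- mice and 1067, 1269.6 and 812 in wild type mice. The Rag1-/- and wild type mice overlapped and the co-housed and separately housed mice did not. Its changes were −0.46 (SE 0.22, adjusted p = 0.152) in Rag1-/- mice and −1.52 (SE 0.23, adjusted p = 0.000253) in co-housed mice.

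Apoc2, the activator of lipoprotein lipase, was the 1 gene that rose in Rag1-/- mice. The gene (mm9 chr7:20256928-20262213) had 119, 125 and 102 CPM in Rag1-/- mice, 84.2, 68.2 and 121 in co-housed Tcra-/- mice, 82.9, 55.8 and 76.8 in separately housed Tcra-/- mice and 51.8, 54.6 and 46.2 in wild type mice. All 3 Rag1-/- mice and TCRaCox3157 lay above the other 8 mice, and the co-housed and separately housed groups overlapped. Its promoter holds a near match to the direct repeat, as do promoters of Cd36, Fabp1, Plin2 and Creb3l3, genes that moved the other way. It rose 2.27-fold in Rag1-/- mice (log2 fold change 1.18, SE 0.21, adjusted p = 0.00144), and its change in co-housed mice was 0.34 (SE 0.20, adjusted p = 0.188). The difference between both changes was 0.84 (SE 0.29, adjusted p = 0.0666) and passed without TCRaCox3157 (adjusted p = 0.00332, difference 1.10).

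Creb3l3, a liver and gut transcription factor of lipoprotein genes also called CREBH (mm9 chr10:80547078-80561617), had 81.4, 124 and 123 CPM in Rag1-/- mice, 118, 94.6 and 96.6 in co-housed Tcra-/- mice, 285, 263 and 330.3 in separately housed Tcra-/- mice and 223, 205 and 179.7 in wild type mice. As for Fabp2, all 6 Rag1-/- and co-housed mice lay below the other 6, and separately housed mice were highest. It fell 1.85-fold in Rag1-/- mice (log2 fold change −0.88, SE 0.16, adjusted p = 0.00111) and 2.84-fold in co-housed mice (log2 fold change −1.50, SE 0.16, adjusted p = 9.34e-06). The difference between both falls was 0.62 (SE 0.22, adjusted p = 0.0705) and passed without RAG1x3163 (adjusted p = 0.00247, difference 0.80).

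Among the 6 sterol genes, 2 fell in Rag1-/- mice and 3 in co-housed mice. Abcg5 and Abcg8 form the pump that returns plant sterols and cholesterol to the gut lumen, and lie head to head on chromosome 17 with 207 bases between them (mm9). Abcg8 had 158, 196 and 200.2 CPM in Rag1-/- mice, 174, 164 and 158 in co-housed Tcra-/- mice, 306, 294 and 345 in separately housed Tcra-/- mice and 266, 307 and 242 in wild type mice. Neither comparison overlapped. Its changes were −0.55 (SE 0.10, adjusted p = 0.000561) in Rag1-/- and −0.93 (SE 0.10, adjusted p = 2.05e-06) in co-housed mice. Abcg5 had 228, 268 and 279 CPM in Rag1-/- mice, 242, 211 and 195 in co-housed Tcra-/- mice, 306, 301 and 327 in separately housed Tcra-/- mice and 344, 363 and 278 in wild type mice. RAG1x3168 overlapped with WTB6x3167 and the co-housed mice lay below all separately housed mice. It fell in co-housed mice (log2 fold change −0.53, SE 0.11, adjusted p = 0.000608), and its change in Rag1-/- mice missed the threshold (log2 fold change −0.35, SE 0.11, adjusted p = 0.0196) but passed without WTB6x3167 (adjusted p = 0.00313, log2 fold change −0.45).

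Npc1l1, the cholesterol importer of the brush border (mm9 chr11:6111014-6130248), had 843, 937 and 806 CPM in Rag1-/- mice, 956, 720.2 and 833 in co-housed Tcra-/- mice, 1327, 1252 and 1528 in separately housed Tcra-/- mice and 1184, 1216 and 927 in wild type mice. Co-housed mice lay below separately housed mice, and RAG1x3164 overlapped with WTB6x3167. Its changes were −0.71 (SE 0.12, adjusted p = 0.000149) in co-housed mice and −0.36 (SE 0.12, adjusted p = 0.0297) in Rag1-/- mice, the second of which passed without WTB6x3167 (adjusted p = 0.00543, log2 fold change −0.48). Soat2, which esterifies cholesterol for chylomicrons, had 112, 127 and 116 CPM in Rag1-/- mice and 133, 185 and 145 CPM in wild type mice. WTB6x3159 lay nearest to the Rag1-/- mice and the groups did not overlap. The log2 fold change was −0.39 (SE 0.10, adjusted p = 0.00751), and it was no longer called without RAG1x3163, RAG1x3168, TCRaCox3156, TCRaSepxT2, TCRaSepxT3, TCRaSepxT4 or WTB6x3160 (adjusted p = 0.0102 to 0.0421, log2 fold change −0.39 to −0.24). In Tcra-/- mice Soat2 had 127 ± 7.42 CPM in co-housed and 128 ± 6.30 CPM in separately housed mice (change −0.01, SE 0.10, adjusted p = 0.928).

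Abca1, the exporter that loads cholesterol onto apolipoprotein A-I, had its highest levels in wild type and co-housed mice, with 35.8, 46.9 and 50.3 CPM in Rag1-/- mice, 60.4, 56.8 and 53.4 in co-housed Tcra-/- mice, 48.1, 34.4 and 48.6 in separately housed Tcra-/- mice and 55.8, 57.4 and 57.9 in wild type mice. Rag1-/- mice lay below wild type mice and co-housed mice above separately housed mice. Neither change was called (log2 fold change −0.36, SE 0.13, adjusted p = 0.0499, and 0.38, SE 0.13, adjusted p = 0.0268), and the co-housed change passed without RAG1x3163 (adjusted p = 0.00884, log2 fold change 0.38). The difference between both, −0.74 (SE 0.19, adjusted p = 0.0111), passed without RAG1x3168 (adjusted p = 0.00713, difference −0.84). Scarb1 changed by −0.20 (SE 0.19, adjusted p = 0.471) in Rag1-/- mice and 0.18 (SE 0.19, adjusted p = 0.451) in co-housed mice, with 85 to 136 reads per library, and was not called.

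Of 5 droplet and lipolysis genes, 2 fell in Rag1-/- mice and 3 in co-housed mice. Plin2, the coat protein of droplets in most cells (mm9 chr4:86302469-86315963), had 35.9, 34.4 and 43.8 CPM in Rag1-/- mice, 41.1, 52.9 and 44.9 in co-housed Tcra-/- mice, 94.4, 91.8 and 83.9 in separately housed Tcra-/- mice and 64.2, 66.9 and 75.5 in wild type mice. All 6 Rag1-/- and co-housed mice lay below the others. Like Cd36 and Fabp1, the gene has a near match to the direct repeat in the promoter printed above. It fell 1.81-fold in Rag1-/- mice (log2 fold change −0.86, SE 0.11, adjusted p = 1.49e-05) and 1.94-fold in co-housed mice (log2 fold change −0.96, SE 0.11, adjusted p = 2.14e-06). Lipe, the hormone-sensitive lipase (mm9 chr7:26164546-26181006), had 47.8, 44.4 and 67.4 CPM in Rag1-/- mice, 50.6, 46.8 and 56.1 in co-housed Tcra-/- mice, 106, 101 and 145 in separately housed Tcra-/- mice and 57.8, 72.4 and 75.8 in wild type mice. Separately housed mice stood above all others, and RAG1x3168 lay within the wild type range. Its changes were −1.20 (SE 0.18, adjusted p = 0.000168) in co-housed mice and −0.37 (SE 0.18, adjusted p = 0.145) in Rag1-/- mice, where it was not called. It shares 453 exonic bases on the opposite strand with 4732471J01Rik, which has 368 reads against 38028.

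Pnpla2, which takes the first acyl chain off stored triglyceride, had 80.7, 87.6 and 81.7 CPM in Rag1-/- mice and 101, 112 and 104 in wild type mice, and 89.2, 74.9 and 91.7 CPM in co-housed Tcra-/- mice and 104, 103 and 122 in separately housed Tcra-/- mice. Neither pair of groups overlapped. The log2 fold changes were −0.34 (SE 0.09, adjusted p = 0.00632) in Rag1-/- mice, which ended when any 1 of the 6 mice compared was left out (adjusted p = 0.0104 to 0.0313), and −0.36 (SE 0.09, adjusted p = 0.0024) in co-housed mice, which ended without TCRaCox3156 or TCRaSepxT4 (adjusted p = 0.0174 to 0.0216, log2 fold change −0.28 to −0.26). Plin3, a second droplet coat, had 289.8 to 345 CPM in Rag1-/- mice, 299 to 319 in co-housed mice, 282 to 359 in separately housed mice and 318 to 349.8 in wild type mice. Mgll, the monoglyceride lipase, had 15.4 to 19.7, 17.4 to 24.4, 20.8 to 24.2 and 18.3 to 19.9 CPM in the same order. Neither was called, with changes of −0.09 (SE 0.09, adjusted p = 0.483) and −0.06 (SE 0.09, adjusted p = 0.622) for Plin3 and −0.11 (SE 0.12, adjusted p = 0.553) and −0.16 (SE 0.12, adjusted p = 0.29) for Mgll in Rag1-/- and co-housed mice.

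Across the 4 groups, 22 of the 32 genes differed in any way, where 41.7% of all genes did. A test of the difference between both comparisons called 2 of the 32, Slc27a2 and Apob, where 12% of all genes were called. The median of that difference was 0.17 on the log2 scale. Of the genes called in 1 comparison alone, 8 were called in co-housed mice and 2, Apoc2 and Soat2, in Rag1-/- mice. Apart from Apob none of these 10 differed between the comparisons at the threshold. The difference of Fabp2 (log2 fold change 0.56, SE 0.23, adjusted p = 0.116) and that of Pltp (log2 fold change −0.75, SE 0.23, adjusted p = 0.0306) passed without TCRaCox3155 (0.78, adjusted p = 0.00801, for Fabp2 and −0.92, adjusted p = 0.00624, for Pltp).

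Each Tcra-/- group was also set against the same 3 wild type mice, so these values are not independent of those above. In separately housed mice 3 of 32 genes rose, Slc27a2 (log2 fold change 0.76, SE 0.08, adjusted p = 9.8e-06), Acsl3 (log2 fold change 0.59, SE 0.11, adjusted p = 0.00133) and Lipe (log2 fold change 0.77, SE 0.18, adjusted p = 0.00845), where 13.8% of all genes were called, 6.06% higher and 7.7% lower. The median log2 fold change was 0.23. The Lipe call ended without RAG1x3163, TCRaCox3155, TCRaCox3156, TCRaCox3157, TCRaSepxT2, TCRaSepxT4, WTB6x3159, WTB6x3160 or WTB6x3167 (adjusted p = 0.0106 to 0.0332, log2 fold change 0.60 to 0.85). Cd36 (log2 fold change 0.41, SE 0.11, adjusted p = 0.0108) missed the threshold and passed without RAG1x3168, TCRaCox3157, TCRaSepxT2 or WTB6x3160 (adjusted p = 0.00595 to 0.00907, log2 fold change 0.41 to 0.50). Apob (log2 fold change 0.43, SE 0.11, adjusted p = 0.012) passed without TCRaCox3155 or TCRaCox3157 (adjusted p = 0.00115 to 0.00272, log2 fold change 0.43 to 0.43), Fabp2 (log2 fold change 0.62, SE 0.17, adjusted p = 0.0169) without TCRaCox3155 or TCRaCox3156 (adjusted p = 0.0023 to 0.00568, log2 fold change 0.61 to 0.61), Plin2 (log2 fold change 0.39, SE 0.10, adjusted p = 0.0133) without RAG1x3168 or TCRaCox3156 (adjusted p = 0.00725 to 0.00824, log2 fold change 0.38 to 0.39) and Creb3l3 (log2 fold change 0.53, SE 0.16, adjusted p = 0.0282) without RAG1x3163 (adjusted p = 0.00211, log2 fold change 0.53).

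In co-housed mice 12 of 32 genes were lower than in wild type mice and none was higher. Of all genes 18.5% were called, 9.34% higher and 9.19% lower. The median log2 fold change of the 32 genes was −0.34. With library size alone 20 were lower, the median of all genes was −0.12 against 0.00, and the calls among all genes were 795 higher and 2449 lower, against 1482 and 1458. The 12 were Cd36 (log2 fold change −1.24, SE 0.11, adjusted p = 8.97e-07), Slc27a2 (−0.88), Fabp1 (−2.05), Fabp2 (−0.93), Acsl3 (−0.90), Mogat2 (−0.37), Apoa1 (−0.86), Apoc3 (−2.05), Creb3l3 (−0.97), Abcg5 (−0.60), Abcg8 (−0.71) and Plin2 (−0.57), with log2 fold changes in brackets. Apoc2 was higher in all 3 co-housed mice and missed the threshold (log2 fold change 0.84, SE 0.21, adjusted p = 0.0112). It passed without TCRaCox3156 or TCRaSepxT3 (adjusted p = 0.00196 to 0.00485, log2 fold change 0.84 to 1.01). The Fabp1 call ended without TCRaCox3156, TCRaCox3157, WTB6x3159 or WTB6x3160 (adjusted p = 0.015 to 0.0187, log2 fold change −2.04 to −1.79) and that of Mogat2 without TCRaCox3156 (adjusted p = 0.0101, log2 fold change −0.32). Other calls appeared when 1 mouse was left out, namely Acsl5, Apoa4 and Npc1l1 without TCRaCox3155 (adjusted p = 0.00856, 0.00792 and 0.00667), Npc1l1 also without WTB6x3167 (0.00344), Apobec1 without TCRaCox3157 (0.00856), and Pnpla2 without TCRaCox3157 (0.00863) or TCRaSepxT4 (0.00738).

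Other genes of lipid handling were taken from lists of 92 genes, 85 of them tested. In Rag1-/- mice 10 rose and 16 fell, where 20.9% of all genes were called, and in co-housed mice 13 rose and 36 fell, where 38.8% were. All counts per list below stand against these shares, and those of the difference between both comparisons against 12%. Genes of fatty acid oxidation that PPARA is known to drive were taken as 1 list. Of its 10 tested genes 3 fell in Rag1-/- mice (median log2 fold change −0.41) and 9 in co-housed mice (median −1.12), and for 5 the difference between both comparisons was called. Acaa2, a mitochondrial thiolase, had 56.8, 58.6 and 69.0 CPM in Rag1-/- mice, 51.3, 57.5 and 66.0 in co-housed Tcra-/- mice, 128, 124 and 125 in separately housed Tcra-/- mice and 79.2, 75.7 and 88.6 in wild type mice. Co-housed mice lay below separately housed mice and Rag1-/- mice below wild type mice. Its changes were −1.11 (SE 0.10, adjusted p = 1.39e-07) in co-housed and −0.40 (SE 0.09, adjusted p = 0.00403) in Rag1-/- mice, where the call ended without RAG1x3163, RAG1x3164, WTB6x3159 or WTB6x3167 (adjusted p = 0.0102 to 0.0258, log2 fold change −0.42 to −0.33). Acadm, the medium chain dehydrogenase, changed by −0.62 (SE 0.06, adjusted p = 5.91e-07) and Ehhadh, a peroxisomal enzyme, by −0.91 (SE 0.09, adjusted p = 8.56e-07) in co-housed mice, and Ehhadh by −0.46 (SE 0.09, adjusted p = 0.00132) in Rag1-/- mice. Acaa1b, a peroxisomal thiolase, was at 0.0980, 0.521 and 0.512 CPM in Rag1-/- mice and 2.47, 2.40 and 1.36 CPM in wild type mice (log2 fold change −2.43, SE 0.44, adjusted p = 0.000713). It was also called lower in co-housed mice, at 0.250 ± 0.167 CPM against 7.53 ± 0.905 CPM in separately housed mice. Acaa1b has a close paralog, Acaa1a, and reads of such pairs may be split between them.

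Of 24 regulators of lipid genes, 3 rose and 4 fell in Rag1-/- mice, and 2 rose and 13 fell in co-housed mice. Ppara, the receptor named above, had 28.6, 29.2 and 27.4 CPM in Rag1-/- mice, 27.3, 25.3 and 24.3 in co-housed Tcra-/- mice, 65.4, 82.3 and 83.9 in separately housed Tcra-/- mice and 44.2, 50.04 and 36.7 in wild type mice. The separately housed mice were the highest. It fell 1.54-fold in Rag1-/- mice (log2 fold change −0.62, SE 0.11, adjusted p = 0.000443) and 3.01-fold in co-housed mice (log2 fold change −1.59, SE 0.11, adjusted p = 2.05e-08). Mlxipl, the carbohydrate-responsive factor ChREBP, changed by −0.78 (SE 0.12, adjusted p = 0.000144) and −1.40 (SE 0.12, adjusted p = 3.18e-07). Ppard, a receptor related to Ppara, rose in both comparisons (log2 fold change 0.76, SE 0.09, adjusted p = 8.67e-06, and 0.77, SE 0.09, adjusted p = 3.31e-06). Hnf4g, a relative of HNF4A in the gut, had 305 ± 47.6 CPM in co-housed mice and 609 ± 42.9 CPM in separately housed mice (change −0.999, SE 0.10, adjusted p = 6.1e-07). Hnf4a itself had 1206 ± 52.4 CPM in Rag1-/- mice, 1132 ± 90.2 in co-housed, 955 ± 41.4 in separately housed and 1065 ± 10.1 in wild type mice. It was thus lowest where Hnf4g was highest. Neither comparison called Hnf4a, while the test of any difference among the 4 groups did.

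**Figure D4:**
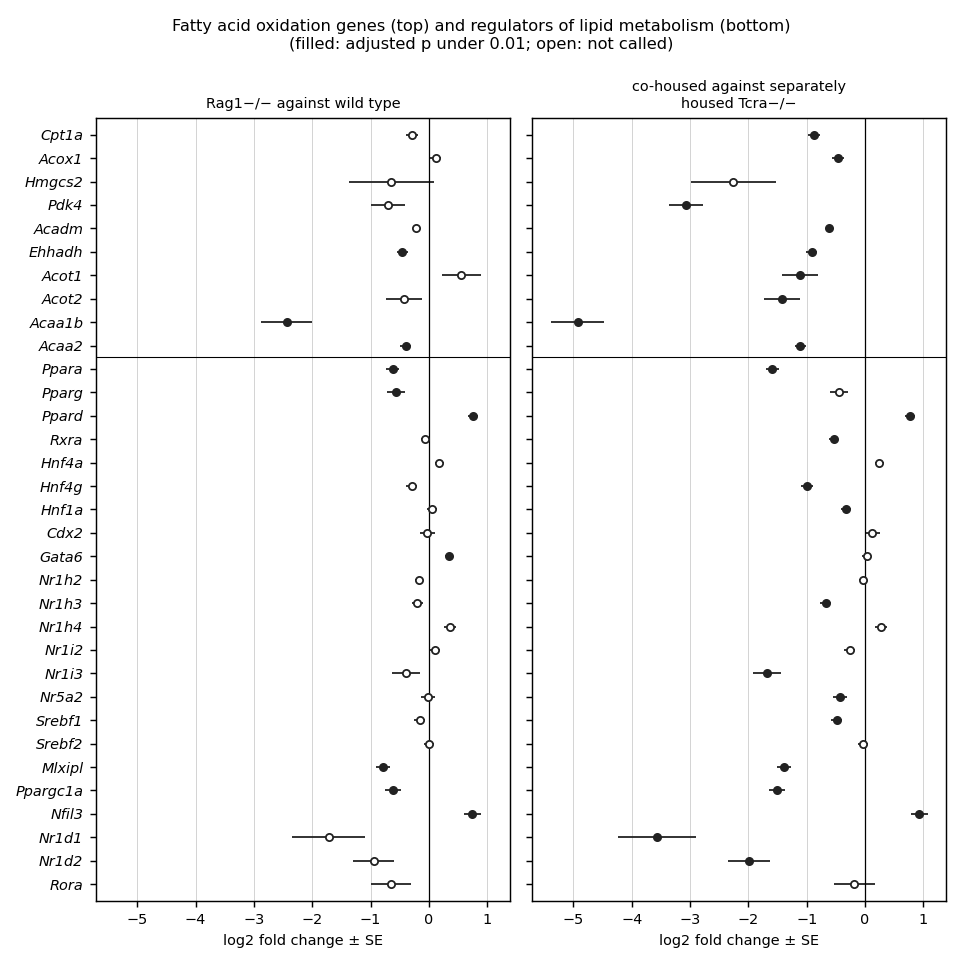
Log2 fold change ± SE of 10 fatty acid oxidation genes (above the line) and 23 regulators of lipid metabolism (below it) in Rag1-/- against wild type mice (left) and co-housed against separately housed Tcra-/- mice (right). Filled points passed an adjusted p of 0.01; Nr0b2 is not drawn because it had no read in co-housed mice. Of the oxidation genes, 9 are filled and below 0 on the right and 3 on the left.

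Of 18 other lipoprotein genes, 3 rose and 3 fell in Rag1-/- mice, and 5 rose and 3 fell in co-housed mice, where 38.8% of all genes were called, so that the co-housed count is near the background. Angptl4, an inhibitor of lipoprotein lipase, had 3.38, 4.31 and 5.87 CPM in Rag1-/- mice and 47.3, 70.7 and 24.7 in wild type mice, without overlap (log2 fold change −3.39, SE 0.44, adjusted p = 0.00041). It was also called lower in co-housed mice, at 6.64 ± 2.11 CPM against 96.7 ± 17.4 CPM in separately housed mice. Apoe, an apolipoprotein of macrophages among other cells, fell in Rag1-/- mice (log2 fold change −0.54, SE 0.11, adjusted p = 0.00113) and rose in co-housed mice (log2 fold change 0.78, SE 0.11, adjusted p = 2.01e-05). P4hb, the partner subunit of Mttp, rose in Rag1-/- mice (log2 fold change 0.36, SE 0.07, adjusted p = 0.000966, and 0.19 with adjusted p = 0.032 under library size alone). The gene was also called higher in co-housed mice, at 1828 ± 61.3 CPM against 1445 ± 60.5 CPM in separately housed mice. Sar1a, a relative of Sar1b, rose in co-housed mice (log2 fold change 0.41, SE 0.07, adjusted p = 8.33e-05), as did Lipc, the hepatic lipase, at 1.122 ± 0.316 CPM against 0.290 ± 0.0530 CPM in separately housed mice (log2 fold change 1.93, SE 0.30, adjusted p = 5.86e-05). The summed level of 7 macrophage markers was 266 to 437 CPM in co-housed mice, 138 to 180.4 in separately housed mice, 185 to 219 in Rag1-/- mice and 265 to 309 in wild type mice, and its part in the Apoe values was not tested.

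Of 9 other carriers and ligases, 1 rose and 1 fell in Rag1-/- mice, and 1 rose and 2 fell in co-housed mice. Dbi, an acyl-CoA binding protein, rose in Rag1-/- mice (log2 fold change 0.60, SE 0.09, adjusted p = 6.04e-05). Fabp5, a carrier of skin and immune cells among others, fell in Rag1-/- mice (log2 fold change −0.83, SE 0.17, adjusted p = 0.00124) and rose in co-housed mice (log2 fold change 0.68, SE 0.17, adjusted p = 0.00314), where the call ended with library size alone (log2 fold change 0.57, adjusted p = 0.0129), and likewise without TCRaCox3155, TCRaCox3156, TCRaSepxT2 or TCRaSepxT4 (adjusted p = 0.0131 to 0.0225, log2 fold change 0.53 to 0.64). Acsl1 and Slc27a1, a ligase and a transporter of long chain fatty acids, fell in co-housed mice (log2 fold change −0.92, SE 0.13, adjusted p = 2.14e-05, and −0.78, SE 0.14, adjusted p = 0.000226).

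Of 9 other genes of glycerolipid synthesis, 1 rose and 2 fell in Rag1-/- mice, and 2 rose and 4 fell in co-housed mice. Agpat3, an acyltransferase, fell in both (log2 fold change −1.81, SE 0.09, adjusted p = 1.1e-09, and −1.36, SE 0.09, adjusted p = 6.07e-09). Lpin1, a phosphatidate phosphatase, rose in both (log2 fold change 0.69, SE 0.13, adjusted p = 0.000887, and 0.56, SE 0.13, adjusted p = 0.0026), and its relatives Lpin2 and Lpin3 fell in co-housed mice (log2 fold change −0.81, SE 0.09, adjusted p = 1.19e-06, and −0.44, SE 0.08, adjusted p = 0.000352). The co-housed rise of Lpin1 was lost with library size alone (log2 fold change 0.45, adjusted p = 0.0131), and likewise without TCRaSepxT2 (adjusted p = 0.0157, log2 fold change 0.44). Agpat6 fell in Rag1-/- mice (log2 fold change −0.34, SE 0.08, adjusted p = 0.00354), which did not hold without RAG1x3163, RAG1x3164 or WTB6x3160 (adjusted p = 0.0242, 0.0135 and 0.0214). Of 7 other droplet genes 1 rose and 1 fell in each comparison. Abhd5, the coactivator of Pnpla2, fell in both (log2 fold change −0.35, SE 0.08, adjusted p = 0.00378, and −0.52, SE 0.08, adjusted p = 6.76e-05), and Plin5, a droplet coat of oxidative tissue, rose in both (log2 fold change 2.08, SE 0.45, adjusted p = 0.00226, and 1.68, SE 0.46, adjusted p = 0.0063), with 0.707 ± 0.175 CPM in Rag1-/- mice, 0.559 ± 0.122 in co-housed mice, 0.174 ± 0.114 in separately housed mice and 0.165 ± 0.0683 in wild type mice. The call of Abhd5 in Rag1-/- mice ended without RAG1x3163, RAG1x3164, WTB6x3159 or WTB6x3160 (adjusted p = 0.0125 to 0.0218, log2 fold change −0.35 to −0.30). The calls of Plin5 ended without RAG1x3163 or WTB6x3159 (adjusted p = 0.0135 to 0.0154, log2 fold change 1.79 to 1.86) in Rag1-/- mice and without TCRaCox3156, TCRaCox3157, TCRaSepxT2 or TCRaSepxT4 (adjusted p = 0.0133 to 0.0343, log2 fold change 1.37 to 1.74) in co-housed mice, and in co-housed mice also with library size alone (1.57, adjusted p = 0.0102) or only the 6 libraries compared (1.69, adjusted p = 0.0124).

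Of 8 other sterol genes, 1 rose and 2 fell in Rag1-/- mice, and 2 rose and 4 fell in co-housed mice. Cyp27a1, the sterol 27-hydroxylase, fell in Rag1-/- mice (log2 fold change −1.21, SE 0.17, adjusted p = 0.000144) and in co-housed mice (log2 fold change −2.40, SE 0.17, adjusted p = 2.57e-07). Lipa, the lysosomal acid lipase, did so too (log2 fold change −0.55, SE 0.09, adjusted p = 0.000174, and −1.30, SE 0.09, adjusted p = 1.48e-08). Stard4, a cytosolic sterol carrier, fell in co-housed mice (log2 fold change −0.81, SE 0.10, adjusted p = 7.02e-06). Stard3, a late endosomal one, rose in Rag1-/- mice (log2 fold change 0.26, SE 0.07, adjusted p = 0.00905), which did not hold with library size alone (adjusted p = 0.368) and when any 1 mouse but RAG1x3168, TCRaCox3156 or TCRaCox3157 was left out (adjusted p = 0.01 to 0.0506).

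Markers of other cells and gut segments were set beside these results. Summed over 7 markers of epithelium, the level was 16725 to 17888 CPM in Rag1-/- mice, 15865 to 18005 in co-housed mice, 16755 to 17944 in separately housed mice and 17426 to 18063 in wild type mice, and the groups overlapped. Within that list Vil1 and Epcam fell and Cdh17 rose in both comparisons, by at most 0.37 on the log2 scale. Markers of the ileum, which include the bile acid carrier Fabp6, summed to 3976 to 5081, 5106 to 5615, 6463 to 7245 and 5102 to 6239 CPM in the same order of groups. Of the 6, Cubn alone fell in Rag1-/- mice, and 2 fell and 1 rose in co-housed mice. The list was expressed in every library, as the tissue label states.

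Of 5 markers of the proximal small intestine, 1 fell and 1 rose in Rag1-/- mice, and 2 fell and 1 rose in co-housed mice. Their summed level was 315 to 367 CPM in Rag1-/- mice, 213 to 270.2 in co-housed mice, 683 to 1057 in separately housed mice and 461 to 598 in wild type mice, highest in separately housed and lowest in Rag1-/- and co-housed mice, as for Cd36 and Fabp1. The fall of that sum was carried by Lct, the lactase, at 13.7 ± 5.01, 14.4 ± 12.02, 742 ± 204 and 389 ± 80.8 CPM in the same order. Lct fell in both comparisons (log2 fold change −4.83, SE 0.62, adjusted p = 0.000447, and −5.70, SE 0.64, adjusted p = 9.93e-05) while Slc40a1, the iron exporter, rose (1.44 and 2.36 on the log2 scale), and Cybrd1 and Onecut2 were called in neither. Gata4, a transcription factor of the proximal gut, fell in co-housed mice (log2 fold change −0.37, SE 0.10, adjusted p = 0.00573) and was not called in Rag1-/- mice (log2 fold change −0.35, SE 0.10, adjusted p = 0.0125). Cubn, the vitamin B12 receptor of the ileum, fell too (log2 fold change −2.67, SE 0.45, adjusted p = 0.00213, and −3.78, SE 0.47, adjusted p = 0.000179). Whether these differences have a part in those of the absorption genes was not tested.

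Adipocyte markers summed to 21.4 to 36.0 CPM in Rag1-/- mice, 31.6 to 37.7 in co-housed mice, 72.8 to 88.5 in separately housed mice and 51.6 to 60.8 in wild type mice, again highest in separately housed and lowest in Rag1-/- and co-housed mice, as for Plin2 and Lipe. Of the 6 tested, Cidec, a droplet protein that gut epithelium also makes, fell in both comparisons (log2 fold change −1.32, SE 0.21, adjusted p = 0.000722, and −1.79, SE 0.21, adjusted p = 3.81e-05) and no other was called. Cidec had the highest mean of the list in every group, at 14.7, 16.8, 58.02 and 36.9 CPM in the same order of groups. Fabp4 averaged 9.34, 12.01, 12.96 and 15.1 CPM, highest in wild type mice, and so did not follow the order of the sum. Cfd averaged 1.52, 3.33, 6.94 and 1.71 CPM. Adipoq was at 0.612 ± 0.396, 1.26 ± 0.681, 2.23 ± 0.848 and 1.17 ± 0.262 CPM. Lep, Plin1 and Retn were below 1 CPM on average in each group. The part of these markers in the Plin2 and Lipe values was not tested. Of 6 hepatocyte markers 3 were tested and 2 of these fell in co-housed mice, with sums of at most 8.73 CPM and Alb at 0.0593 CPM or less on average. No marker of smooth muscle or endothelium was called. T cell markers summed to 6.07 to 8.24 CPM in Rag1-/- mice, 21.3 to 46.6 in the co-housed group, 9.41 to 9.85 in the separately housed group and 55.6 to 87.8 in wild type mice, and so did not follow the order of the absorption genes. Of 5 T cell markers, 4 were called higher in co-housed than in separately housed mice, though both groups carry the Tcra-/- label. Against wild type mice, all 5 were called lower in Rag1-/- and separately housed mice and 3 in co-housed mice.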

How the data were processed

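RNA was extracted with Trizol from terminal ileum of 12 mice and made into stranded mRNA libraries, per the labels' protocols. The authors deposited raw read counts per gene on mm9, and per the submitters' processing notes TopHat2 2.0.11, Bowtie2 2.2.2.0, featureCounts of Subread 1.4.5-p1 and DESeq2 1.12.3 were used. Totals were 37061276 to 50581616 counts per library, and precision rests on 3 mice per group, with nothing said of separate cages.

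From these counts, 23284 genes were filtered with filterByExpr, which kept 15866, scaled with TMM factors and fitted with edgeR 4.0.16 (R 4.3.3) under its quasi-likelihood model, with 1 term for each of 4 groups and 8 residual degrees of freedom. SE are those of the fitted log2 fold changes, p-values are two-sided and adjusted over all 15866 genes, and 0.01 is the threshold because the design text states 1% as its false discovery rate. The design text states the comparisons of Rag1-/- with wild type and of co-housed with separately housed Tcra-/- mice. CPM are scaled counts, and RPKM divide them by the deposited exonic length. Scripts were tested on simulated counts. DESeq2 1.42.0, other scalings, filters and leaving out each library were tried as alternatives. Motifs were counted by exact comparison of letters, with a stated number of mismatches, in RefSeq promoters of GRCm38.p6, a build other than that of the counts, so positions of the builds are not mixed. Clps is the pancreatic colipase listed with the uptake genes.

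All listed genes are named, and of the other lists up to 3 called genes of smallest adjusted p in each stated comparison. Hnf4a is named in addition, and so are Nr1d1, Nr1d2, Nfil3 and Rora, after their values were seen. The genes and lists were chosen with earlier results of these data known. Counts of Acsl3, Pltp and Lipe may include reads of the overlapping genes named with them. No source used here says whether counting used strand.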

Additional observations from a re-analysis of the deposited data

Results flagged for a closer look

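For 14 of the genes named, the log2 fold change of Rag1-/- over wild type mice and that of co-housed over separately housed Tcra-/- mice differed in edgeR's test of the difference itself, the first minus the second. Of all 15866 genes 12% were called in this test, and of the 32 absorption genes 2 were. The others were named for a small adjusted p in 1 of the comparisons that enter the difference, so their number is not a share to set against 12%. Among the absorption genes the difference was 0.60 (SE 0.12, adjusted p = 0.00191) for Slc27a2 and 0.64 (SE 0.16, adjusted p = 0.00989) for Apob. Slc27a2 had no overlap in either comparison, with log2 fold changes of −1.04 in Rag1-/- and −1.64 in co-housed mice. Apob was higher in all 3 Rag1-/- mice and lower in all 3 co-housed mice, and its difference ended when any 1 mouse other than TCRaCox3155 was left out.

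Of the oxidation genes and their receptor Ppara, those named here had larger falls in co-housed mice. The difference was 0.71 (SE 0.13, adjusted p = 0.00124) for Acaa2, 0.40 (SE 0.09, adjusted p = 0.00334) for Acadm and 0.97 (SE 0.16, adjusted p = 0.00032) for Ppara. Acadm lost this call with library size alone (difference 0.34, adjusted p = 0.0154), and likewise without RAG1x3164 or WTB6x3167 (adjusted p = 0.0102 to 0.012, difference 0.37 to 0.38). Hnf4g differed by 0.70 (SE 0.14, adjusted p = 0.00177), with changes of −0.30 in Rag1-/- and −0.999 in co-housed mice. Acsl1 differed by 0.85 (SE 0.18, adjusted p = 0.00276), which ended without TCRaSepxT4 (adjusted p = 0.0101, difference 0.81), and Lpin2 by 0.83 (SE 0.12, adjusted p = 0.000119).

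Of 8 other sterol genes, 3 had a positive and 1 a negative difference that was called. The positive ones were 1.20 (SE 0.24, adjusted p = 0.00327) for Cyp27a1, 0.75 (SE 0.13, adjusted p = 0.000463) for Lipa and 0.69 (SE 0.14, adjusted p = 0.00248) for Stard4, and Abcg1, named in addition to the 14 after its values were seen, had the negative one, at −1.93 (SE 0.35, adjusted p = 0.00084). The Cyp27a1 difference ended without TCRaCox3157 or WTB6x3160 (adjusted p = 0.0102 to 0.0121, difference 1.10 to 1.18). Opposite directions were measured for Apoe, with a difference of −1.32 (SE 0.15, adjusted p = 1.35e-05), and for Fabp5, with −1.51 (SE 0.24, adjusted p = 0.000261). Lipc differed by −2.33 (SE 0.39, adjusted p = 0.000497), with changes of −0.40 in Rag1-/- and 1.93 in co-housed mice. Groups of 3 mice are too small for a test of single outlying mice, and every column of the deposited table was used.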

How the results depend on the processing

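No direction of the 32 genes reversed in a called comparison under any alternative. Separately housed Tcra-/- against wild type mice had 3 genes called, and 8 in a fit of only the 6 libraries compared, 8 with DESeq2, 10 at an adjusted p under 0.05 and 2 to 5 with 1 library left out, the 5 without RAG1x3168. Co-housed Tcra-/- against wild type mice had 12, and 9 with only the 6 libraries compared, 18 with DESeq2, 20 with library size alone, 20 at 0.05 and 11 to 15 with 1 library left out. The difference between the stated comparisons had 2, and 1 with a filter of at least 1 CPM in 3 libraries, 6 with DESeq2, 7 at 0.05 and 1 to 4 with 1 library left out, the 4 without TCRaCox3155. The cause was not tested. Calls among all genes move with the setting too, as given above for library size alone, and are not given here for the others. These counts therefore show how calls depend on the setting and are not set against all genes. Rag1-/- against wild type mice had 15 to 21 calls, and 10 to 18 with 1 library left out, and co-housed against separately housed mice 19 to 24, and 16 to 22. With only the 6 libraries compared, which leave fewer degrees of freedom, Fabp1 (adjusted p = 0.0157) and Soat2 (0.0261) lost their call in Rag1-/- mice, Acsl5 (0.0182) and Apob (0.0191) in co-housed against separately housed mice, and Fabp1 (0.0117), Fabp2 (0.0101) and Apoc3 (0.0112) in co-housed against wild type mice. Depth limits Apoa5 and Apom, which were too low to test, and 3 mice per group limit the rest. No paired analysis was possible because the mouse numbers are not shared between groups.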
